A study of Mus musculus with 2 samples.

Results

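Nuclei that carried Lgr5 transcripts but did not pass as hair cells were taken from a single-nucleus RNA-seq study of the postnatal mouse cochlea. A nucleus was counted as a member if it had at least 500 genes, a mitochondrial share of at most 5% and at most 15000 unique molecular identifiers (UMIs, each standing for 1 captured transcript). It also needed at least 2 Lgr5 UMIs and fewer than 2 detected genes out of Myo3a, Dytn, Loxhd1, Strip2 and Ptprq, which are hair bundle and other hair cell genes. This gave 399 members among 19339 nuclei that passed the first 3 criteria, 235 of 10567 in the Serpine2 cOE library and 164 of 8772 in the control library. Members were thus chosen by their Lgr5 and hair cell gene counts, so the levels of these genes are a description and support nothing further.

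The Serpine2 cOE library came from 20 pooled cochleae of Lgr5EGFP-CreER/+,Serpine2loxp/loxp mice, and the control library from 19 pooled cochleae of Serpine2loxp/loxp mice. Both groups carried the loxP alleles of Serpine2, both received tamoxifen at postnatal day 1, and both were collected at postnatal day 7 (P7) as the tissue labelled cochlear basement membrane. The driver allele, named for Lgr5, EGFP and CreER, was present in cOE mice alone. The driver allele itself and recombination at Serpine2 cannot be told apart in this design. The series calls the first group a conditional overexpression, and the sources used here do not describe the construct that recombination leaves. Each group was 1 library, so no difference below has a replicate check and no significance test was possible. Intervals are 95% and cover counting error only.

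Lgr5 is a receptor for R-spondins. When R-spondin binds it, the ubiquitin ligases Rnf43 and Znrf3 are removed from the membrane, Frizzled receptors accumulate and Wnt/beta-catenin signalling is strengthened. In the neonatal organ of Corti, Lgr5 marks a subset of supporting cells, among them Deiters' cells, inner pillar cells, inner phalangeal cells and the lateral part of Koelliker's organ. Such cells can divide or turn into hair cells when Wnt signalling is raised or Notch signalling is blocked in the first postnatal days.

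The files held 12014 barcodes in Serpine2 cOE and 9820 in control. Members were deeper than the rest, with a median of 4904 UMIs in cOE and 4613.5 in control, against 2450 and 2247 in all other nuclei. Their UMIs summed to 1331954 in cOE and 902166 in control, so a gene with no UMI could still stand at 2.25 and 3.33 CPM (UMIs scaled to a library sum of 1e6). A doublet score marked 15.7% of cOE members and 15.2% of control members, and 9.48% and 7.71% of other nuclei. The part of depth and of doublets in who became a member was not tested. The libraries shared 27 barcodes, none of them a member in both.

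Lgr5 (ENSMUSG00000020140, chromosome 10, 115286216 to 115423685, minus strand, GRCm39) summed to 941 UMIs in cOE members and 599 in control members. Many members lay at the threshold. Exactly 2 Lgr5 UMIs were found in 119 cOE and 81 control members, 3 UMIs in 48 and 28, and 4 to 9 UMIs in 51 and 47. At least 10 UMIs were found in 17 cOE and 8 control members, with maxima of 43 and 15. Just outside the criterion lay 546 cOE and 416 control nuclei with a single Lgr5 UMI, at median depths of 3083.5 and 2993.5 UMIs. A further 167 cOE and 124 control nuclei had enough Lgr5 but 2 or more of the hair cell genes, at median depths of 7236 and 7466 UMIs. Lgr5 was thus also found in nuclei with hair cell genes in both libraries.

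Free RNA in droplets can also give an Lgr5 UMI. In macrophage-like nuclei, which should lack the gene, Lgr5 stood at 16.5 CPM in cOE against 13.9 CPM in control. A UMI was held by 3.14% and 2.70% of them, at median depths of 1834 and 1791 UMIs. The doublet score marked 17.6% of them in cOE and 20.7% in control, and 2 of the cOE ones were members. The parts of free RNA and of doublets in these counts were not tested. After thinning to 1000 UMIs per nucleus, 1 of 147 such cOE nuclei and 0 of 201 control nuclei held Lgr5, and 0 of 201 allows a share of up to 1.49%. In mesenchyme and tympanic border-like nuclei Lgr5 stood lower, at 4.49 CPM in cOE and 5.61 CPM in control. Over all nuclei, 3.02% in cOE and 2.83% in control held Lgr5 after thinning and met the hair cell criterion.

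The 3 other markers given for the population were sparsely detected. Jag1, a Notch ligand of supporting cells, had a UMI in 49.8% of cOE members and in 48.2% of control members. Lfng, a glycosyltransferase that modifies Notch, had one in 24.3% and 18.9%, and Sox2, a transcription factor of the prosensory domain, in 13.6% and 9.76%. All 3 stood above their levels in other nuclei. Jag1 was at 196 CPM in cOE members against 52.9 CPM in other cOE nuclei, and at 190 against 41.0 CPM in control. None of the 3 was seen in 91 cOE and 71 control members, while all 3 were seen in 9 and 5. At least 3 of 12 supporting cell markers were found in 187 cOE members (79.6%) and 114 control members (69.5%), and at least 3 of 7 mesenchyme markers in 61 (26.0%) and 63 (38.4%). Among other nuclei, which were shallower, the supporting cell share was 26.1% in cOE and 17.5% in control, and the mesenchyme share 43.7% and 44.2%. After thinning to 1000 UMIs, 3 supporting cell markers were found in 18.4% of cOE members against 5.69% of other cOE nuclei, and in 15.3% of control members against 3.51%. At least 3 mesenchyme markers were then found in 1.28% of cOE members against 14.3% of other cOE nuclei. In control it was 3.68% against 15.8%. The summed level of the 12 supporting cell markers differed less, at 2283 CPM in cOE members against 1782 CPM in other cOE nuclei, and at 2215 against 1710 CPM in control. At least 3 of 12 hair cell markers outside the gate were found in 43 cOE members (18.3%) and 21 control members (12.8%), and after thinning in 0.855% of cOE members and no control member.

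All filtered nuclei were grouped into 24 clusters with Lgr5, the 5 hair cell genes and Serpine2 left out, and members were found in many of them. Cluster 5, called pillar and Deiters-like for its markers Prox1, Fgfr3, Hey2, Lfng, Bace2, Prss23 and Emid1, held the most: 64 cOE members (27.2%) and 34 control members (20.7%). Pillar and Deiters' cells are the rod-like and cup-like supporting cells around the outer hair cells. Cluster 4, unnamed and led by Pla2r1 and Ano1, held 43 cOE and 35 control members. Cluster 17, Koelliker organ-like by Ano1, Epyc and Tecta, held 38 and 23, of which the doublet score marked 16 and 4. Koelliker's organ is the transient medial epithelium whose chloride channel Ano1 serves spontaneous activity before hearing begins.

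Cluster 13, unnamed and led by Syt6 and Car10, held 26 cOE and 17 control members. Cluster 14, unnamed and led by Pla2g3, Prdm12 and Ano1, held 10 and 9, and it carried 8 of the 12 supporting cell markers. The unnamed cluster 10 was led by 8030451A03Rik, Dab1 and Tnc, and its top 10 genes included Nkd1 and the secreted Wnt inhibitor Notum. Members there numbered 5 in cOE and 15 in control. The neuron-like cluster 18 held 14 and 4. The rest were spread thinly: the roof epithelium-like cluster 2 held 9 and 10, cluster 1, led by Trdn, Rspo2 and Otoa, held 4 and 8, and no member fell in either hair cell-like cluster. The members were thus a mixture of clusters rather than a single cell type, and the libraries differed most in the shares of clusters 5, 10 and 18.

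**Figure D1:**
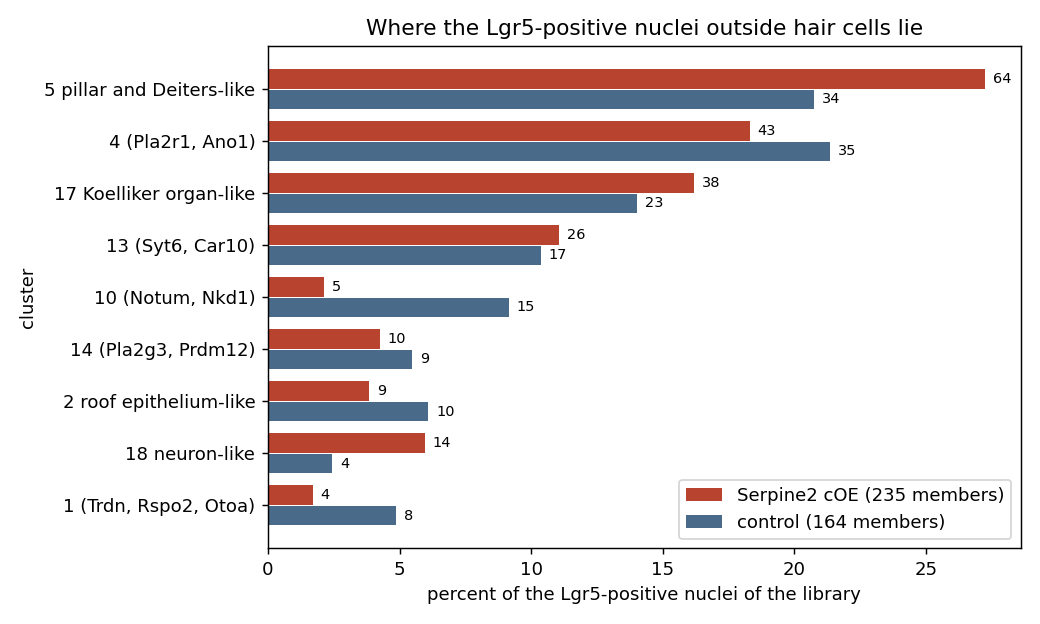
Bars give the percent of each library's members found in each of the 9 clusters with the most members, Serpine2 cOE above control, with the number of members beside each bar. The pillar and Deiters-like cluster 5 held 27.2% of cOE and 20.7% of control members, and cluster 10 held 2.13% and 9.15%.

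Lgr5 separated cluster 5 from every other non-hair-cell cluster by level. Over all its nuclei Lgr5 stood at 622 CPM (570 to 678) in cOE and 489 CPM (429 to 556) in control, a log2 ratio of cOE over control of 0.35 (0.12 to 0.58). Of its nuclei, 44.4% (36.2 to 53.0) in cOE and 39.5% (29.2 to 50.7) in control were members. Lgr5 was lower in cOE in cluster 4, at 88.5 against 147 CPM (log2 ratio -0.73, -1.03 to -0.43), and in cluster 14, at 117 against 201 CPM (-0.78, -1.46 to -0.10). It was also lower in cOE in cluster 1, at 27.6 against 89.2 CPM (-1.69, -2.49 to -0.89). The same held in the roof epithelium-like cluster 2, at 16.0 against 24.5 CPM (-0.62, -1.13 to -0.10). In the unnamed cluster 9 it was at 6.96 against 19.6 CPM (-1.49, -2.87 to -0.27), from 8 and 22 UMIs. No cluster but 5 had an interval of this ratio above 0. In clusters 17 and 13 the intervals of the ratio spanned 0, at 81.1 against 90.8 CPM and 120 against 130 CPM. Where the driver named for Lgr5 sits in the genome is not stated in the sources used here. If it sits at Lgr5, 1 allele of the counted gene is altered in cOE mice alone, so these Lgr5 levels, and the member shares of the groups, cannot be told apart from that change.

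A second pillar and Deiters-like cluster, number 19, differed from cluster 5 in this gene. It carried 8 pillar and Deiters markers, including S100b and Npy, yet its Lgr5 level was 24.01 CPM in cOE against 16.7 CPM in control. Only 1 of its 55 cOE nuclei and none of its 28 control nuclei was a member. After thinning, 2 of 55 and 1 of 28 nuclei of cluster 19 held Lgr5, against 30.6% of cOE and 27.9% of control nuclei of cluster 5. Among hair cell-like nuclei, none of which was a member, Lgr5 stood at 294 CPM in cOE against 269 CPM in control in cluster 11. In cluster 21 it was at 179 against 208 CPM. The log2 ratio was 0.13 (-0.30 to 0.57) in cluster 11 and -0.22 (-0.41 to -0.02) in cluster 21.

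**Figure D2:**
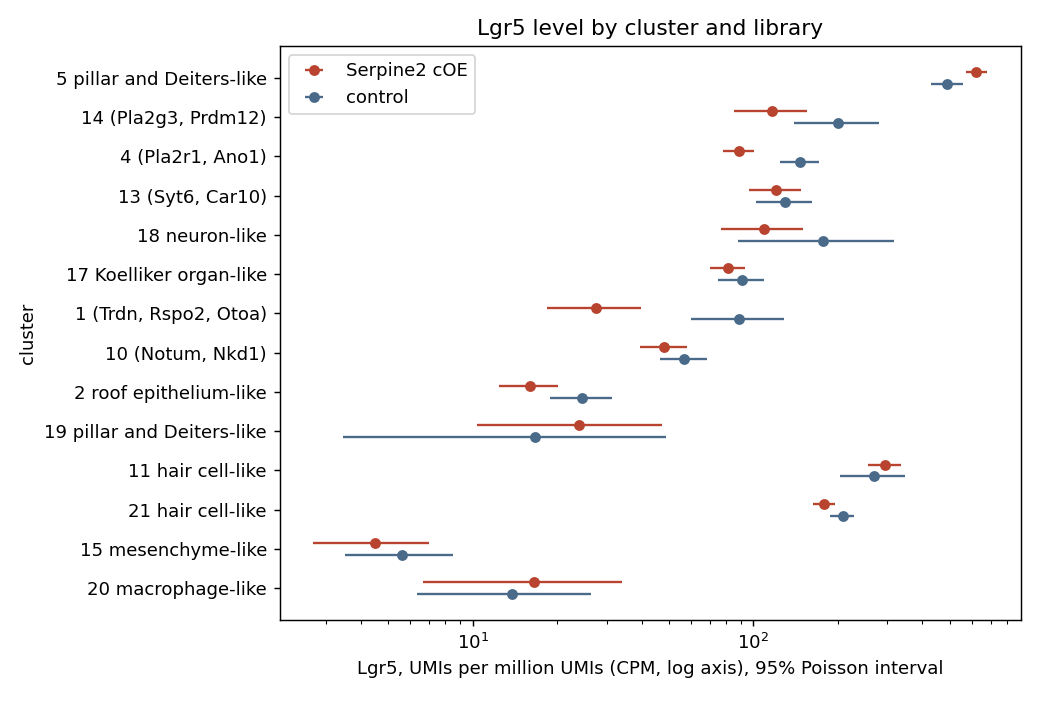
Points give Lgr5 in CPM on a log axis over all nuclei of each cluster, with exact 95% Poisson intervals, Serpine2 cOE above control. Of the clusters drawn, cluster 5 was highest, at 622 CPM in cOE and 489 CPM in control.

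The more Lgr5 a member carried, the more often it lay in cluster 5. Of members with exactly 2 Lgr5 UMIs, 9 of 119 in cOE (7.56%) and 3 of 81 in control (3.70%) were in cluster 5. Of those with at least 5, 40 of 51 in cOE (78.4%) and 25 of 39 in control (64.1%) were there. With at least 10 UMIs it was 17 of 17 and 7 of 8. The median member of cluster 5 had 5.5 Lgr5 UMIs in cOE and 6.5 in control, whereas in clusters 4, 10, 13 and 17 the median was 2 in both libraries. Members near the threshold thus lay mostly outside cluster 5.

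Marker levels among the members followed the clusters. Prox1, a homeobox factor of pillar and Deiters' cells, was at 547 CPM in cOE members of cluster 5 and 558 CPM in control ones, and Fgfr3, a receptor needed for pillar cell fate, at 458 and 490 CPM. Prox1 had no UMI in the members of clusters 4 and 17, where 0 counts allow up to 12.9 and 13.3 CPM in cOE and 18.9 and 24.7 CPM in control. Ano1 was at 4035 CPM in cOE and 4103 CPM in control members of cluster 4, and at 7467 and 6152 CPM in those of cluster 14. Epyc, a small matrix proteoglycan, was at 1013 and 1078 CPM in members of cluster 17. Members of the neuron-like cluster also had Prox1, at 321 and 294 CPM, beside the synaptic gene Snap25 at 704 and 1000 CPM. In members of cluster 10, the Wnt feedback inhibitor Nkd1 was at 1309 CPM in cOE and 1991 CPM in control. These levels rest on 13 UMIs from 5 cOE members and 124 UMIs from 15 control members, so the pair is not read as a difference.

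**Figure D3:**
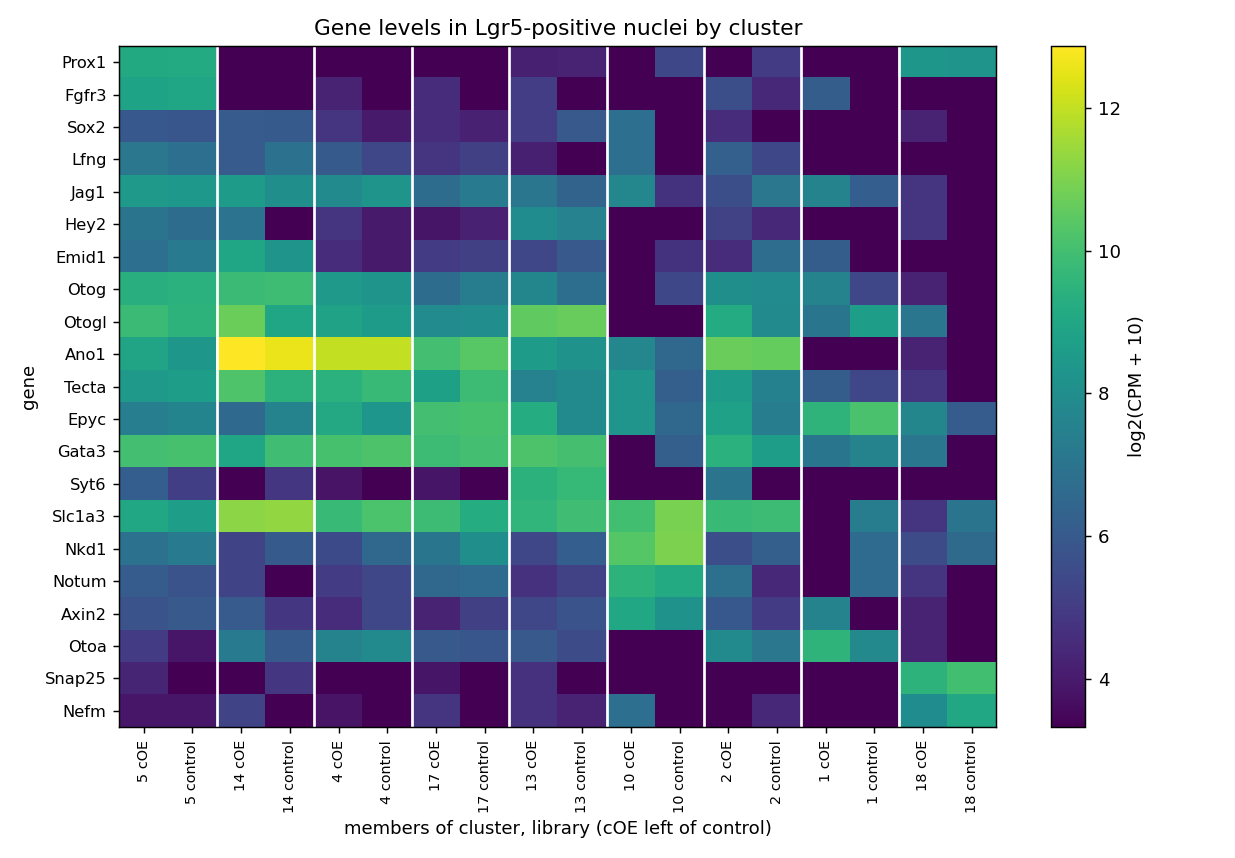
Colours give log2(CPM + 10) of marker and Wnt feedback genes in the members of 9 clusters, Serpine2 cOE left of control in each pair. Prox1 stood high in clusters 5 and 18, Fgfr3 in cluster 5, Ano1 in clusters 4 and 14, and Nkd1 in cluster 10.

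Set against all other nuclei, 468 of 9867 genes with at least 30 member UMIs (4.74%) were at least 2-fold higher in members of both libraries, and 190 (1.93%) were at least 2-fold lower. These ratios follow the choice of nuclei. Umodl1, a uromodulin-like gene, led the list. It was at 105 CPM in cOE members against 4.55 CPM in other cOE nuclei, and at 64.3 against 4.15 CPM in control. Prox1 was at 197 against 14.05 CPM in cOE and at 143 against 12.96 CPM in control. Hs3st4, a heparan sulfate sulfotransferase, was at 81.8 against 6.87 CPM in cOE and at 97.5 against 7.40 CPM in control. Cep41, a centrosomal and ciliary tubulin-modifying factor, was at 651 against 79.3 CPM and at 451 against 56.6 CPM. Fgfr3 was at 155 against 25.9 CPM and at 114 against 22.4 CPM. Among the other genes of the 20 with the highest ratios were Slc24a2, Snph, Sv2c, Sh3gl3 and Kif26b.

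Wnt pathway genes did not all stand on the same side as Lgr5. Znrf3, itself a Wnt target, was higher in members than in other nuclei by 0.77 (log2) in cOE and 0.65 in control. Axin2, the usual readout of Wnt/beta-catenin signalling, was lower by the same measure, at -1.02 in cOE and -0.60 in control. Lgr4, the more widely expressed relative of Lgr5, was also lower, at -0.46 and -0.34. As a set, 27 genes of Wnt ligands, effectors and feedback were not lower in both libraries. They summed to 2848 CPM in cOE members against 2880 CPM in other cOE nuclei, and to 3279 against 2774 CPM in control.

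A closer contrast within cluster 5 set its members beside nuclei of the same cluster without an Lgr5 UMI, 64 against 69 in cOE and 34 against 46 in control. Of 4817 genes with at least 20 UMIs in each library, 242 (5.02%) had intervals above 0 in both libraries and 167 (3.47%) below 0 in both. Members were somewhat deeper, at median UMIs of 5652.5 against 4290 in cOE and 5383.5 against 4420 in control, and its part in these differences was not tested. Thsd7b, a thrombospondin-domain gene, was at 656 CPM in cOE members against 42.2 CPM in nuclei without Lgr5, and at 470 against 12.4 CPM in control. Mylk, a myosin light chain kinase, was at 599 against 39.4 CPM in cOE and at 729 against 45.6 CPM in control. Anks1b, a synaptic scaffold gene, was at 1023 against 59.1 CPM and at 1165 against 112 CPM.

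Nrxn3, a presynaptic adhesion molecule, was at 4881 against 692 CPM in cOE and at 4465 against 618 CPM in control. Spock1, a secreted heparan and chondroitin sulfate proteoglycan, was at 1763 against 281 CPM and at 2037 against 212 CPM. Igfbpl1 was at 106 against 2.81 CPM in cOE, where 1 UMI lay in nuclei without Lgr5 (log2 ratio 5.24, 2.69 to 10.58). In control it was at 132 CPM in members and had no UMI in nuclei without Lgr5, so it was at least 10.6-fold higher against a floor of 3 counts. General supporting cell genes differed less. Prox1 was at 547 against 236 CPM in cOE and at 558 against 332 CPM in control, Jag1 at 342 against 194 CPM and at 333 against 199 CPM, and Sox2 at 52.0 against 31.0 CPM and at 49.0 against 49.8 CPM.

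On the other side stood 6330411D24Rik, at 349 CPM in cOE members against 3996 CPM in nuclei without Lgr5, and at 103 against 3037 CPM in control. Mansc4 was at 29.7 against 594 CPM in cOE and at 19.6 against 477 CPM in control. Dync1i1, a dynein intermediate chain, was at 111 against 1708 CPM and at 338 against 1871 CPM. Pcsk2, a prohormone convertase, was at 57.0 against 529 CPM and at 44.1 against 440 CPM. Nr4a3, an orphan nuclear receptor, had no UMI in members of either library, and was at least 8.33-fold lower than in cOE nuclei without Lgr5 and at least 7.06-fold lower than in control ones. Serpine2 was also lower in Lgr5-bearing nuclei, at 173 against 239 CPM in cOE and at 122 against 224 CPM in control, with an interval below 0 in control alone. Cluster 5 thus held a Thsd7b-, Mylk- and Anks1b-rich side with Lgr5 and a 6330411D24Rik-, Mansc4- and Pcsk2-rich side without it, in both libraries.

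**Figure D4:**
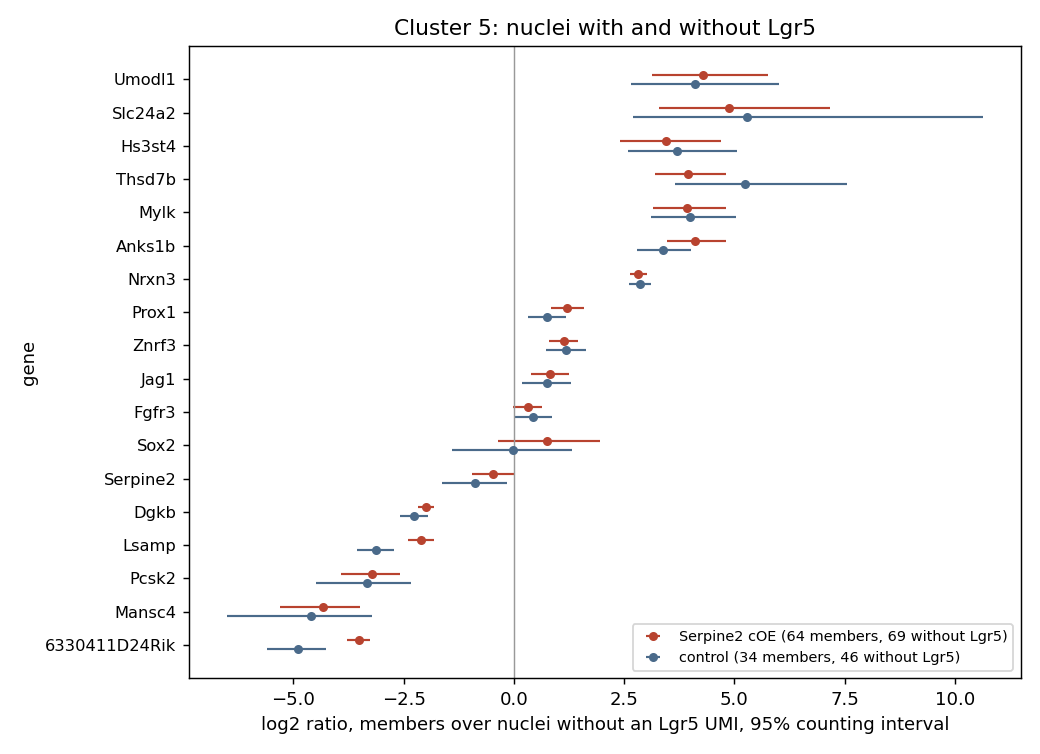
Points give log2 ratios of members over nuclei without an Lgr5 UMI within cluster 5, with exact 95% intervals, Serpine2 cOE above control for each gene. Thsd7b, Mylk and Anks1b lay far above 0 and 6330411D24Rik, Mansc4 and Pcsk2 far below it in both libraries.

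The same contrast gave smaller shares of genes in clusters 4, 17 and 13. Members were deeper than nuclei without Lgr5 there too. In cluster 4 the median UMIs were 3727 against 2524 in cOE and 3994 against 2716.5 in control. In cluster 13 they were 4724 against 3679 and 6506 against 4258.5. The parts of depth, summed UMIs and the lower Lgr5 counts of these members in the shares were not tested. In cluster 4, 61 of 7275 genes (0.838%) lay above 0 in both libraries and 34 (0.467%) below. Nrxn3 was at 2074 CPM in cOE members against 767 CPM in nuclei without Lgr5, and at 3569 against 1109 CPM in control. In cluster 17, 41 of 7994 genes (0.513%) lay above and 27 (0.338%) below. There Ptprt, a receptor phosphatase, was at 915 against 414 CPM in cOE and at 1194 against 366 CPM in control, and Cdh4 at 124 against 434 CPM and at 370 against 780 CPM. In cluster 13, 27 of 4539 genes (0.595%) lay above and 12 (0.264%) below, among the first Tectb, a tectorial membrane protein, at 796 against 503 CPM and at 494 against 290 CPM. Nrxn3 was among the 10 genes leading on the Lgr5 side in clusters 5, 4 and 17, as was the transcript A930009A15Rik.

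Between the libraries, members made up 2.22% (1.95 to 2.52) of nuclei in Serpine2 cOE and 1.87% (1.60 to 2.18) in control. The ratio of cOE over control was 1.19 (0.97 to 1.46). After thinning to 1000 UMIs, with 1 Lgr5 UMI enough, it was 1.07 (0.897 to 1.28), from 306 of 10118 and 223 of 7886 nuclei. Thinning left out 449 cOE and 886 control nuclei. Both intervals included 1. With at least 1 Lgr5 UMI and no thinning the ratio was 1.12 (1.003 to 1.247), from 781 and 580 nuclei, and that interval did not include 1. Inside the members, Lgr5 was at 706 CPM in cOE and 664 CPM in control, a log2 ratio of 0.09 (-0.06 to 0.24).

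Serpine2 (ENSMUSG00000026249, chromosome 1, 79763323 to 79839144, minus strand, GRCm39) encodes a secreted inhibitor of thrombin, plasmin and plasminogen activators. It had 135 UMIs in cOE members and 72 in control members, 101 and 79.8 CPM, with a log2 ratio of 0.34 (-0.08 to 0.78). In other nuclei it stood at 86.3 and 91.6 CPM. Within cluster 5 members it was at 173 CPM in cOE and 122 CPM in control (0.50, -0.18 to 1.22). Across clusters the levels went both ways, on few UMIs. In cluster 14 members Serpine2 was at 317 CPM in cOE against 148 CPM in control. All genes there summed to only 34687 and 53968 UMIs, so a gene with no UMI could still stand at 86.5 and 55.6 CPM. In cluster 17 members Serpine2 was at 44.2 against 132 CPM, from 10 and 16 UMIs. Serpine2 was thus lower in cOE in cluster 17 members, opposite in direction to the ratio over all members and in cluster 5. No interval is printed here for cluster 14 or 17, both rest on few UMIs, and the cause was not tested. Across the other settings run, the ratio lay between -0.38, from 21 and 19 UMIs after thinning, and 0.63, from 94 and 42 UMIs with at least 3 Lgr5 UMIs. Over all members the interval of the ratio included 0, and the 3' counts do not tell transcripts of the recombined allele from native ones.

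Over all members, 214 of 9867 genes (2.17%) were at least 2-fold higher in cOE and 129 (1.31%) at least 2-fold lower, around a median log2 ratio of 0.02. The 2 counts together were 343 genes (3.48%). The 12 genes that led on the higher side were C130073E24Rik, Tubb3, 4930555F03Rik, Gm2516, Sema3e, Gm45321, Brinp3, Zfp804a, Stmn3, Elavl4, Rian and Spock3. Tubb3, a neuronal tubulin, was at 28.5 CPM in cOE and 3.33 CPM in control (3.10, 1.44 to 5.44), and Elavl4, a neuronal RNA-binding protein, at 148 and 45.4 CPM. Of the UMIs of these 12 genes, 1957 of 2076 in cOE (94.3%) and 386 of 428 in control (90.2%) were in the neuron-like cluster, which held 14 and 4 members. Without that cluster 144 genes were at least 2-fold higher. Fewer UMIs are then summed, so the number of genes tested also changes, and 144 and 214 are not counts over the same genes.

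The 12 genes that led on the lower side were 8030451A03Rik, Alk, 9130015G15Rik, Apcdd1, Tex15, 9330175M20Rik, Nkd1, Qrfprl, 1500015L24Rik, Fn1, Dach2 and Galnt18. The transcript 8030451A03Rik was at 81.1 CPM in cOE and 428 CPM in control (-2.40, -2.72 to -2.09). Nkd1 was at 87.8 and 257 CPM (-1.55, -1.88 to -1.22). Apcdd1, a membrane-bound Wnt inhibitor, was at 18.8 and 76.5 CPM (-2.03, -2.75 to -1.35), and Fn1, fibronectin, at 75.1 and 206 CPM. Cluster 10, led by several of these genes, held 78 of their 770 UMIs in cOE (10.1%) and 804 of their 1788 UMIs in control (45.0%), from 5 and 15 members. Single control nuclei held 18 of the 57 Alk UMIs and 63 of the 203 Dach2 UMIs. The part of the mixture of clusters in these differences was not tested directly, and comparisons within clusters follow.

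**Figure D5:**
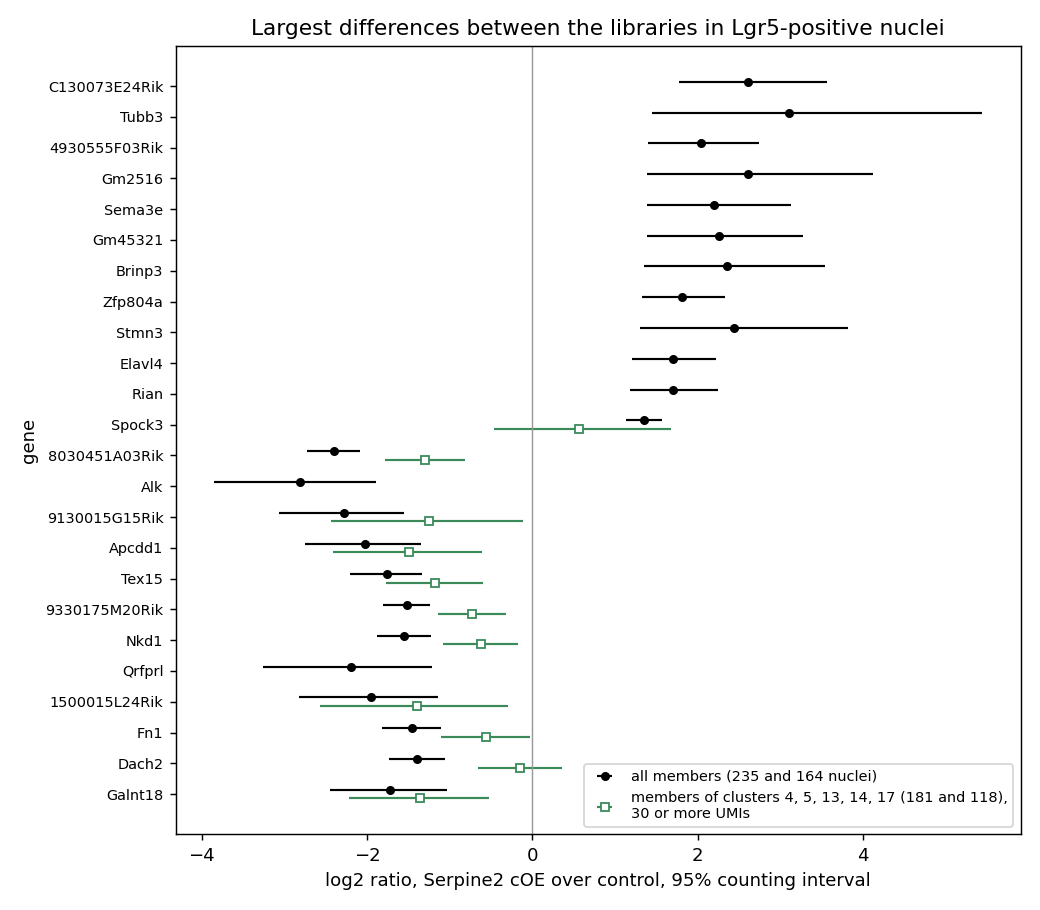
Filled points give log2 ratios of cOE over control over all members for the 12 genes leading on each side, with exact 95% intervals, and open squares the ratio in members of clusters 4, 5, 13, 14 and 17 where the gene had at least 30 UMIs there. Nkd1 stood at -1.55 over all members and -0.62 in these clusters.

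In members of cluster 5 alone, 150 of 4438 genes (3.38%) were at least 2-fold higher in cOE and 79 (1.78%) at least 2-fold lower. Higher in cOE were Kctd8, an auxiliary subunit of GABA-B receptors, at 215 CPM in cOE and 44.1 CPM in control, with 27 of the 87 cOE UMIs in 1 nucleus. Sulf1, an extracellular sulfatase that edits heparan sulfate, was at 384 and 103 CPM (1.90, 1.24 to 2.63), with 36 of 155 in 1 nucleus. Ccn4, a matricellular Wnt target, was at 111 and 24.5 CPM, found in 26 of the cOE and 5 of the control members. The translation factor gene Eif3f was at 109 and 14.7 CPM (2.89, 1.25 to 5.22). In the remaining nuclei of cluster 5, Sulf1 was at 543 and 425 CPM and Ccn4 at 74.9 and 82.1 CPM. Gdf6, a BMP-type ligand, had 23 UMIs in cOE and 1 in control members (3.54, 0.92 to 8.90).

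Lower in cOE members of cluster 5 was Cdh4, the adhesion molecule R-cadherin, at 69.3 CPM in cOE and 230 CPM in control (-1.73, -2.46 to -1.03). In the remaining nuclei of cluster 5 Cdh4 was at 60.9 and 46.4 CPM, with an interval that spanned 0 (0.39, -0.62 to 1.48). Col1a2, a fibrillar collagen, was at 57.0 and 201 CPM, Adamts12, a secreted metalloprotease, at 44.6 and 196 CPM, and Syt1, a synaptic calcium sensor, at 258 and 529 CPM. The 7 mesenchyme markers, Col1a2 among them, summed to 374 CPM in cOE members of cluster 5 against 587 CPM in control ones, and their part in these differences was not tested. Dync1i1 was at 111 and 338 CPM, and it was one of the genes that stood higher in cluster 5 nuclei without Lgr5. By contrast, 6330411D24Rik, of the same side of the cluster, was higher in cOE members, at 349 and 103 CPM, with 36 of its 141 cOE UMIs in 1 nucleus. These 2 genes of the side without Lgr5 thus stood in opposite directions.

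The pooled members of clusters 4, 5, 13, 14 and 17 numbered 181 in cOE and 118 in control. Of 8559 genes, 157 (1.83%) were at least 2-fold higher in cOE and 97 (1.13%) at least 2-fold lower. In this set, which includes the members of cluster 5, Cdh4 was lower in cOE, at 91.6 and 220 CPM (-1.26, -1.66 to -0.88). It stood at 249 and 426 CPM in the remaining nuclei of those clusters. Htr2b, a serotonin receptor, was at 14.6 and 55.4 CPM (-1.92, -2.90 to -1.02), against 35.1 and 41.1 CPM in the remaining nuclei. Mia, a small secreted matrix protein, was higher in cOE at 377 and 206 CPM (0.87, 0.58 to 1.17), and by the same 0.87 in the remaining nuclei. Vmo1, a secreted protein of the inner ear, was at 61.4 and 18.5 CPM (1.73, 0.83 to 2.76), with a ratio of 1.05 in the remaining nuclei and 0.82 outside the members altogether. Vmo1 is a roof epithelium marker, and the 4 markers of that tissue summed to 207 CPM in cOE members of the 5 clusters against 118 CPM in control ones, with Lmx1a also above 0. In cluster 5 members they summed to 324 against 152 CPM, and their part in the result was not tested. For Mia and Vmo1 the difference was thus also present in nuclei that were not members. Cdh4 too was lower in cOE in the remaining nuclei of the 5 clusters.

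The groups of genes that follow were counted by whether a gene's own interval lay above or below 0. Over all members 7.36% of the 9867 genes lay above 0 and 6.12% below. In members of clusters 4, 5, 13, 14 and 17 it was 5.51% and 4.76% of 8559, and in cluster 5 it was 4.93% and 4.55% of 4438.

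Among R-spondin and Wnt receptors, 15 of 23 genes had at least 30 UMIs, of which 1 lay above 0 and 2 below, with a median log2 ratio of 0.02. Znrf3 was at 364 CPM in cOE and 313 CPM in control (0.22, 0.01 to 0.44). The Wnt5a receptors Ror1 and Ror2 were lower in cOE, Ror1 at 161 and 227 CPM and Ror2 at 32.3 and 52.1 CPM. In clusters 4, 5, 13, 14 and 17 neither Ror gene lay below 0, and Znrf3 and the Frizzled receptor gene Fzd2 lay above it. Lgr4 was at 102 and 111 CPM and Rnf43 at 168 and 202 CPM, with intervals that spanned 0. Of Wnt ligands, effectors and feedback genes, 22 of 27 were measured, none above 0 and 8 below. Lef1, a DNA-binding partner of beta-catenin, was at 131 and 259 CPM (-0.99, -1.28 to -0.70), Axin2 at 32.3 and 53.2 CPM, and Notum at 54.8 and 86.5 CPM.

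Of the 8, Nkd1 and Notum are leading genes of cluster 10, whose members numbered 5 in cOE and 15 in control. In clusters 4, 5, 13, 14 and 17, of 21 genes measured, Lef1 (-0.68, -1.05 to -0.32) and Nkd1 (-0.62, -1.08 to -0.17) lay below 0. Dkk2, which was among the 8 below 0 over all members, lay above 0 in these clusters. Of the 63 Dkk2 UMIs of cOE cluster 5 members, 33 were in 1 nucleus. In cluster 5, Lef1 was at 54.5 and 157 CPM, with 14 of the 32 control UMIs in 1 nucleus, and Nkd1 was at 111 and 137 CPM with an interval spanning 0. The median ratio of the Wnt list was -0.13 over all members and -0.07 in the 5 clusters.

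Of Notch genes, 17 of 24 were measured, with 1 above and 2 below 0 and a median of 0.05. Hey2, a Notch effector of pillar cells, was at 75.1 CPM in cOE and 46.6 CPM in control (0.69, 0.16 to 1.25). The coactivators Maml2 and Maml3 lay slightly below 0. The receptor Notch1 was at 97.6 and 94.2 CPM and the ligand Jag1 at 196 and 190 CPM, with intervals that spanned 0. The ligands Dll1, Dll3 and Dll4 had no UMI in members of either library. In cluster 5 none of the 13 Notch genes measured lay above or below 0.

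Of FGF and EGF receptor signalling genes, 12 of 19 were measured, 3 above and 3 below 0. Fgfr3 was at 155 CPM in cOE and 114 CPM in control (0.44, 0.10 to 0.80), Fgf10, a ligand of the sensory epithelium, at 137 and 89.8 CPM, and Egfr at 170 and 129 CPM. The feedback inhibitor Spred2 was at 33.0 and 69.8 CPM. In clusters 4, 5, 13, 14 and 17 none of the 3 higher genes lay above 0, while the 3 lower ones, Fgfr2, Spred2 and Erbb4, all lay below it there too.

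Among BMP and TGF-beta genes, 28 of 31 were measured, with 5 above and 1 below 0. Bmp4, a ligand of the lateral epithelium, was at 39.8 CPM in cOE and 15.5 CPM in control (1.36, 0.49 to 2.32), and the lateral epithelium-like cluster 0 held 5 cOE members and no control member. Gdf6 was at 24.8 and 6.65 CPM (1.90, 0.62 to 3.44). Fst, an activin and BMP antagonist, was at 29.3 and 7.76 CPM, with 15 of 39 cOE UMIs in 1 nucleus. Id3, a BMP target, was at 224 and 171 CPM (0.40, 0.11 to 0.69). Gdf6 and Id3 lay above 0 in the 5 clusters too, among 27 measured.

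Few hair cell fate genes were measurable. Atoh1, the factor that starts hair cell differentiation, had no UMI in any member. Of 13 such genes 6 were measured, and Ikzf2, an outer hair cell factor, and Rorb, an orphan nuclear receptor, lay above 0. Rorb was at 643 CPM in cOE and 514 CPM in control (0.32, 0.16 to 0.49), and at 246 and 147 CPM in other nuclei. The summed level of 12 hair cell markers outside the gate was 590 CPM in cOE and 539 CPM in control (0.13, -0.03 to 0.30). Other nuclei, among which the gate left the hair cells, had 1315 and 1218 CPM. Ocm, an outer hair cell calcium buffer, was the single one above 0.

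Proliferation markers had UMIs in 32 cOE and 25 control members, at 27.8 and 32.1 CPM in members against 39.1 and 47.9 CPM in other nuclei. No member of either library had 3 or more of the 14, and 0 members allows a share with 3 such markers of up to 1.28% in cOE and 1.83% in control. Cdkn1b, the inhibitor that holds supporting cells out of the cycle, was at 143 CPM in cOE and 139 CPM in control. Ccnd2, a D-type cyclin, was at 10.5 and 27.7 CPM (-1.40, -2.46 to -0.40). It and Rbl2 lay below 0 among 11 cell cycle exit genes measured, and none lay above. In clusters 4, 5, 13, 14 and 17, Rbl2 alone lay below 0 among 9 measured. In cluster 5 none of 6 lay above or below 0. Of Hippo pathway genes 15 of 19 were measured, 1 above and 3 below 0, with Yap1 at 93.1 and 113 CPM.

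In the plasminogen and thrombin system to which Serpine2 belongs, 9 of 22 genes were measured. Serpini1, neuroserpin, lay above 0 with 41 UMIs in cOE and 8 in control. Plat, tissue plasminogen activator, was at 54.8 and 74.3 CPM (-0.44, -0.94 to 0.06). No gene of this list lay above or below 0 in clusters 4, 5, 13, 14 and 17. Of 17 prosensory and otic factors 14 were measured, with 5 above 0 and 1 below, Prox1 at 197 and 143 CPM among the first. Within cluster 5 Prox1 was at 547 and 558 CPM (-0.03, -0.36 to 0.31).

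Of cadherins 7 of 8 were measured. Cdh2, N-cadherin, was at 122 CPM in cOE and 87.6 CPM in control (0.47, 0.08 to 0.88), and Cdh4 at 99.1 and 200 CPM (-1.01, -1.34 to -0.68). Of gap junction and potassium handling genes 12 of 14 were measured, with Kcnj10, the inward rectifier Kir4.1, above 0 at 30.03 and 12.2 CPM and 4 genes below. The connexins Gjb2 and Gjb6 were at 112 and 94.2 CPM and at 101 and 85.4 CPM, with intervals spanning 0. Of tectorial and extracellular matrix genes 18 of 22 were measured, 5 above and 5 below 0. Otogl was at 670 and 528 CPM and Tecta at 387 and 467 CPM.

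Of 13 mitochondrially encoded genes 10 were measured and 7 lay above 0, mt-Cytb among them at 181 CPM in cOE and 103 CPM in control. In other nuclei mt-Cytb was at 205 and 136 CPM. Ribosomal protein genes had a median of -0.00 over 73 measured, with 6 above and 11 below 0, but in clusters 4, 5, 13, 14 and 17 the balance was the opposite, with 13 above, 4 below and a median of 0.07. Of 12 immediate early genes 7 were measured, and Fosb alone lay outside 0, below it.

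Marker levels of other cell types differed between the libraries as well. The 7 mesenchyme markers, all measured, summed to 556 CPM in cOE members and 793 CPM in control members (-0.51, -0.66 to -0.36), with 5 below 0. In the 5 clusters above they summed to 537 and 600 CPM. The 5 neuron markers summed to 152 and 86.5 CPM (0.82, 0.43 to 1.21), and in the 5 clusters to 41.9 and 18.5 CPM. Pillar and Deiters markers summed to 711 and 572 CPM, inner border and phalangeal markers to 822 and 991 CPM, and Koelliker organ markers to 2282 and 2444 CPM. Supporting cell markers in general were at 2283 and 2215 CPM, lateral epithelium ones at 972 and 899 CPM and interdental ones at 438 and 421 CPM. Over all members roof epithelium markers were at 312 and 320 CPM, with Lmx1a below 0. Marginal cell markers were at 44.3 and 57.6 CPM, and bone and cartilage markers at 459 and 531 CPM. Outside the epithelium, Schwann cell markers were at 417 and 409 CPM, endothelial ones at 215 and 212 CPM and pericyte ones at 37.5 and 35.5 CPM. Macrophage markers were at 46.5 and 69.8 CPM, erythroid ones at 134 and 124 CPM, and melanocyte ones at 6.01 and 4.43 CPM. The melanocyte markers Tyr and Mlana, the endothelial marker Kdr, the cartilage marker Acan and the proliferation marker Bub1 had no UMI in members. The part of these in the differences above was not tested.

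Genes of the sex chromosomes also differed. Uty, on the Y chromosome, was at 181 CPM in cOE members and 92.0 CPM in control members, and Xist, on the X chromosome, at 1745 and 2044 CPM. Other nuclei moved the same way, with Uty at 151 and 65.0 CPM and Xist at 1944 and 2627 CPM. The labels give no sex for the pooled mice, and its part in the differences was not tested.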

How the data were processed

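Both libraries were made with 10x Chromium 3' v3.1 chemistry from polyA RNA of pooled nuclei and sequenced on a NovaSeq 6000, per the labels. The authors deposited UMI counts, unnormalized whole numbers for each nucleus and gene. The file headers name Cell Ranger 8.0.1 as their source. STAR is named in the submitters' processing notes without a version. The build is given as GRCm39 in the design text and as mm10 in the processing notes. Positions came from GENCODE M39 (GRCm39), where 33185 of 33696 gene identifiers were found.

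Of 21834 barcodes, 19339 nuclei passed the gene, mitochondrial and UMI limits given with the results. Scaled (10000 per nucleus) log counts, 3000 variable genes, 50 components, 15 neighbours and Leiden resolution 1 in scanpy 1.11.5 gave 24 clusters. Sex-linked, mitochondrial, ribosomal and haemoglobin genes were also kept out. Names were given from 19 marker lists and needed at least 3 markers. No other list could have more markers among the 10 leading genes, which left clusters 4 and 14, with Ano1 there, unnamed. A list with no marker among the 10 needed at least 4 markers and 2 times the next list, a limit set after the data were seen. Doublets were scored with Scrublet, the top 0.8% per 1000 barcodes marked, and none removed.

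UMIs were summed per library and given as CPM with exact Poisson intervals; ratios had exact conditional and shares Clopper-Pearson intervals (SciPy 1.17.1). A count of 0 was read as at most 3 counts. Thinning drew 1000 UMIs from each nucleus. The calculation of ratios was tested on simulated counts. Named genes were the 12 with the interval bound farthest from 0 on each side, seen in at least 10 nuclei of 1 library with at most 33.3% of the UMIs in 1 nucleus; the 20 highest in members over other nuclei; and all list genes. Within clusters the same rule was applied. Other scaling factors came from TMM (edgeR 4.0.16). Members, markers, lists and rules were chosen with earlier results of these data known.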

Additional observations from a re-analysis of the deposited data

How the results depend on the processing

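No paired analysis was possible because each group has 1 library. Of 86 settings of the main values, 74 stayed within the counting interval or 1.5 times the count, and 12 did not. The pillar and Deiters-like share of members was 10.4% in cOE and 7.41% in control with at least 1 Lgr5 UMI, 47.4% and 37.3% with at least 3, and 16.4% and 11.8% without the hair cell criterion. Genes at least 2-fold higher in cOE numbered 124 with at least 3 Lgr5 UMIs, 86 after thinning, 141 in pillar and Deiters-like members, 733 at a minimum of 10 UMIs and 81 at 60. Those lower numbered 56 after thinning, 518 at 10 UMIs and 54 at 60. The counts of genes in this paragraph are given without the number tested. That number changes with the UMI minimum, the thinning and the members kept, so the counts are not shares of the same genes. Serpine2 stood at -0.38 after thinning. Over the settings of the named genes and list medians, 505 values kept within the same limits, 156 moved and 5 reversed. The transcript 8030451A03Rik ran between -2.72 and -0.68, the last without the hair cell criterion, and Dach2 between -1.89 and -0.15, moving in 9 of 18 settings. Alk reversed to 0.22 in pillar and Deiters-like members. In clusters 4, 5, 13, 14 and 17, 4930555F03Rik stood at -2.24, C130073E24Rik at -0.66 and Sema3e at -1.24, each from at most 3 UMIs a library, and 4930555F03Rik at -2.08 without the neuron-like cluster. Apart from the fewer nuclei or UMIs each leaves, the cause was not tested. Weighting clusters alike gave 186 genes higher and 149 lower; this, the omission of the neuron-like cluster and the choice of 5 clusters were added after seeing the data. The member share ratio ran between 1.07 and 1.21 over the settings run. Depth limits members of single clusters most, where a gene without UMIs may stand at 302 CPM in cOE members of cluster 10, 86.5 CPM in those of cluster 14 and 88.2 CPM in control members of cluster 18.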
